A study of Homo sapiens with 12 samples.

Results

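The 10 genes described here are the read-out by which an epithelial to mesenchymal transition (EMT) is usually judged. They comprise the classical cadherins CDH1, CDH2 and CDH3, the epithelial adhesion molecule EPCAM, the intermediate filament gene VIM, and the transcription factors SNAI1, SNAI2, ZEB1, ZEB2 and TWIST1. They were chosen by name, and all 10 were found among the 23064 gene symbols of the deposited count tables. Both lines used, CAL-29 and 5637, are established lines of human bladder carcinoma, labelled WT. The cells received either the control siRNA (siCtrl) or an siRNA against KMT9α. RNA was sequenced at day 3, with 3 libraries for each of the 4 groups and 12 libraries in all. The labels write only "siRNA" for the second treatment and the table columns call it si270. That it is siKMT9α#1 was taken from the study's text, and the group is called siKMT9α here. Each line is 1 established line. The transfection reagent, the siRNA dose and the medium differed between the lines, so these cannot be told apart from the line. Only 1 siRNA against KMT9α was used for sequencing, so effects of its sequence cannot be told apart from those of lower KMT9α. Nothing states whether the 3 libraries of a group came from separate cultures, so p-values measure the spread between these libraries, which may be technical.

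KMT9 is a histone methyltransferase built of KMT9α, the catalytic subunit encoded by N6AMT1, and KMT9β. In an epithelium, E-cadherin (CDH1) and P-cadherin (CDH3) hold neighbouring cells together at adherens junctions through catenins. In EMT, factors of the SNAI, ZEB and TWIST families repress CDH1, cells gain N-cadherin (CDH2) and vimentin (VIM), and adhesion gives way to migration. The exchange of CDH1 for CDH2 is known as the cadherin switch, and a gain of CDH3 has also been described in bladder carcinoma.

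The comparison asks how these genes responded to the siRNA against KMT9α in each line. Knockdown of KMT9α was accompanied by lower CDH1, CDH2 and EPCAM in both lines, so the epithelial and the mesenchymal cadherin fell together. CDH3 was slightly higher in both lines without passing the threshold. VIM moved in opposite directions, 29.5-fold down in CAL-29 cells and 1.59-fold up in 5637 cells. SNAI2 fell in CAL-29 cells and did not pass the test in 5637 cells, and the difference between the lines passed it. SNAI1 and TWIST1 passed the threshold of this test in neither line. ZEB1 and ZEB2 did not pass it in 5637 cells and were too low to be tested in CAL-29 cells.

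Levels are given in CPM, the counts brought to a common library size with the TMM method over all 12 libraries together. Fold changes come from a quasi-likelihood fit in edgeR of each line alone, so they differ slightly from the ratio of the CPM values. A gene was called as risen or fallen where its unadjusted p was below 1e-06, as the study did, and the p printed is the one adjusted over all genes tested. The depth of the libraries on the transcripts kept, 1 for each gene symbol, was between 24479348.5 and 35151256.5 counts. In CAL-29 cells the library siCtrl 1 stood apart. Against the other control libraries of the line, its chi-square divided by the degrees of freedom was 8.17 and 12.3, where the other 10 pairs of replicates gave 2.25 to 4.0, and values without it are given below.

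The targeted gene followed the labels. N6AMT1 measured 11.1, 9.98 and 9.43 CPM in the CAL-29 siCtrl libraries and 2.78, 2.89 and 1.96 CPM with siKMT9α, a log2 fold change of -2.0 (SE 0.15, adjusted p = 1.33e-10). In 5637 cells the values were 13.7, 13.4 and 13.5 CPM against 3.83, 2.26 and 2.62 CPM, with a log2 fold change of -2.23 (SE 0.12, adjusted p = 1.05e-15). Control and knockdown libraries did not overlap in either line.

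Both lines carried most of the listed markers of urothelial carcinoma. Of 16 such markers, 14 had a mean of at least 1 CPM in both CAL-29 groups, 12 in 5637 siCtrl cells and 11 in 5637 siKMT9α cells, among them KRT5, KRT8, KRT18, KRT19, GATA3 and TP63. Their summed level was 12423 to 13494 CPM in CAL-29 siCtrl libraries and 5454 to 5643 CPM with siKMT9α, and 10073 to 10527 CPM against 6411 to 6634 CPM in 5637 cells. Among the leukocyte markers CD3E and MS4A1 were at or near 0 in all libraries. The summed level of 8 leukocyte markers, mostly CD14 and CD68, was 6.17 to 7.92 CPM against 13.1 to 15 CPM in CAL-29 cells and 3.64 to 4.03 CPM against 5.07 to 5.51 CPM in 5637 cells. Each sample is a bulk culture of 1 established line, in which fewer cells with a transcript and less of it per cell cannot be told apart.

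Before any knockdown the lines stood at different points of the EMT scale. Between the siCtrl libraries, in a joint model of all 12, CDH1 was 6.62-fold lower in 5637 cells (log2 difference -2.73, SE 0.05, adjusted p = 6.75e-28). VIM was 10.8-fold higher (log2 difference 3.44, SE 0.08, adjusted p = 1.53e-25). TWIST1, a basic helix-loop-helix factor that drives EMT, was 5.3-fold higher in 5637 cells (log2 difference 2.41, SE 0.12, adjusted p = 2.47e-17). ZEB2, a zinc finger repressor of CDH1, was 27.2-fold higher (log2 difference 4.77, SE 0.30, adjusted p = 9.21e-15), but it passed the filter on low counts only through the 5637 libraries. Leaving ZEB2 aside for that reason, 5637 cells had less CDH1 and more VIM and TWIST1.

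The remaining genes did not line up in that way. EPCAM was higher in 5637 cells (log2 difference 0.34), whereas SNAI2 (-0.57) and CDH3 (-0.34) were lower, and each passed the threshold. CDH2 differed by 0.22 on the log2 scale (SE 0.05, adjusted p = 0.000171) and did not pass, although it did without the library CAL-29 siCtrl 1, where the difference was 0.28 (adjusted p = 2.79e-07). SNAI1 (log2 difference -1.06, adjusted p = 0.00135) and ZEB1 (-1.36, adjusted p = 0.105) did not pass either. Thus 4 of the 10 genes, ZEB2 among them, were higher and 3 were lower in 5637 cells, where 30.7% of the 15395 genes tested were higher and 29% were lower. This is a comparison of these lines under their own transfection conditions.

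**Figure D1:**
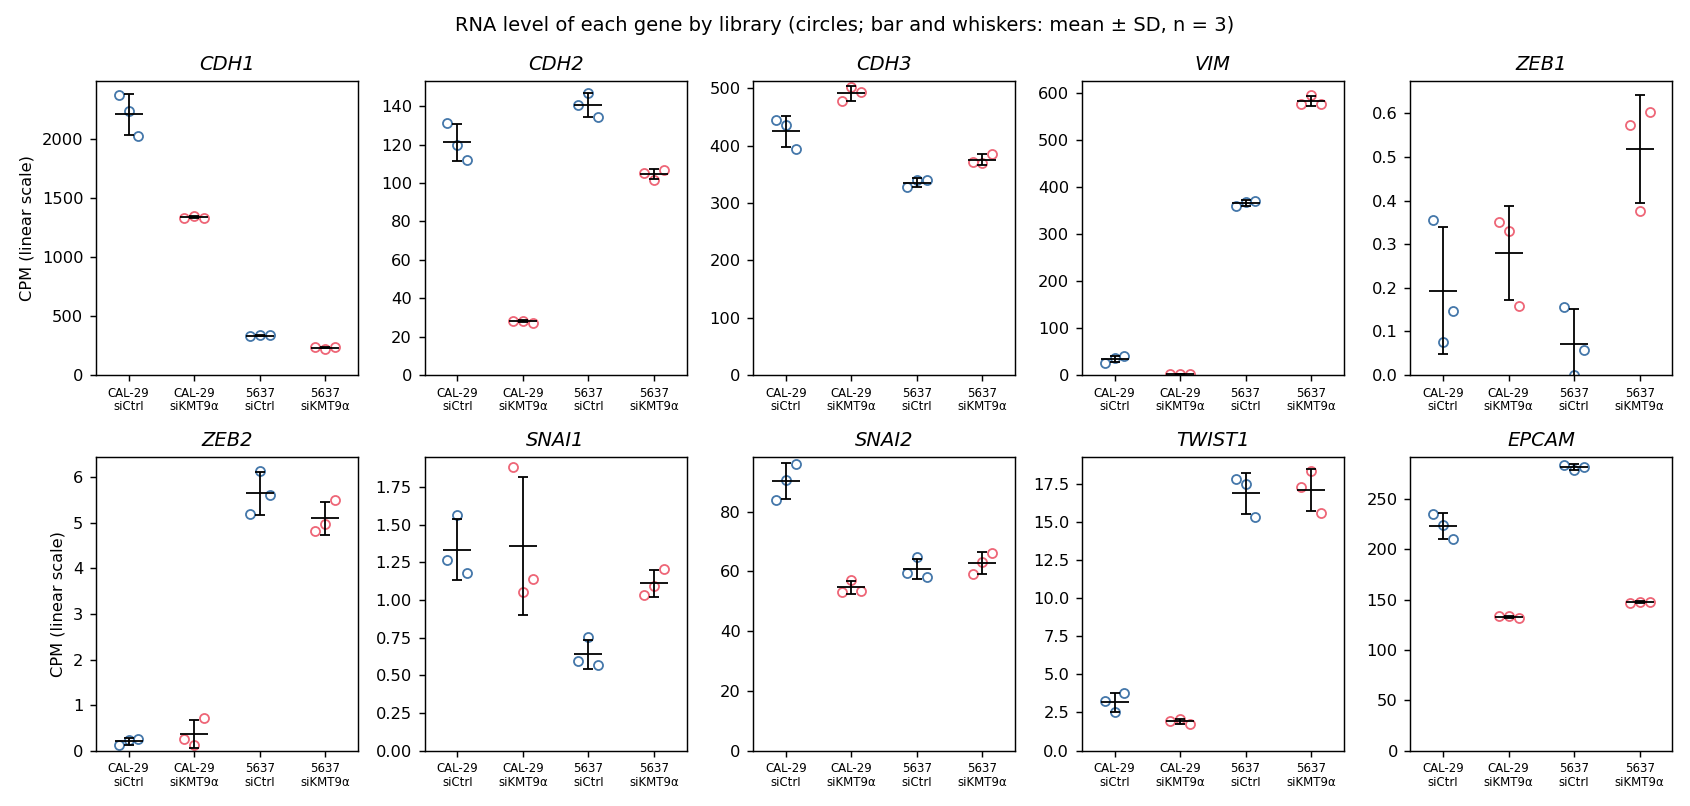
RNA level of each gene in CPM on a linear axis from 0, by cell line and siRNA. Open circles are the 3 libraries of a group, and the horizontal bar with whiskers is the mean ± SD (n = 3). CDH1, CDH2 and EPCAM sat lower in all siKMT9α libraries than in the siCtrl libraries of the same line, while VIM fell to about 1 CPM in CAL-29 cells and rose to between 578 and 597 CPM in 5637 cells. Each panel has its own scale, and ZEB1 stayed below 1 CPM throughout.

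CDH1 encodes E-cadherin, the main cadherin of epithelial adherens junctions, and lies on chromosome 16 (GRCh37 chr16:68771195-68869440, plus strand). In CAL-29 cells it measured 2370, 2238 and 2027 CPM with siCtrl and 1332, 1345 and 1333 CPM with siKMT9α. The groups did not overlap, and CDH1 fell 1.68-fold (log2 fold change -0.75, SE 0.06, adjusted p = 2.5e-10). In 5637 cells CDH1 measured 328, 339 and 335 CPM with siCtrl against 235, 224 and 233 CPM with siKMT9α, again without overlap. The fall there was 1.45-fold (log2 fold change -0.54, SE 0.03, adjusted p = 9.25e-15). The responses of the lines differed by 0.19 on the log2 scale (SE 0.07, adjusted p = 0.0159), which did not pass the threshold. From high to low, the order was CAL-29 siCtrl, CAL-29 siKMT9α, 5637 siCtrl and 5637 siKMT9α, and no neighbours in this order overlapped.

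CDH2 encodes N-cadherin, the cadherin gained by mesenchymal cells, and lies on chromosome 18 (GRCh37 chr18:25512843-25757910, minus strand). Its level was 131, 120 and 112 CPM in CAL-29 siCtrl libraries and 28.3, 28.2 and 27.2 CPM with siKMT9α. The 4.39-fold fall (log2 fold change -2.14, SE 0.06, adjusted p = 3.8e-17) was larger than that of CDH1 in the same cells. In 5637 cells CDH2 measured 141, 147 and 134 CPM against 105, 102 and 107 CPM, a 1.35-fold fall (log2 fold change -0.43, SE 0.04, adjusted p = 4.74e-11). Groups did not overlap within either line. The fall was weaker in 5637 cells by 1.69 on the log2 scale (SE 0.07, adjusted p = 2.94e-17), a difference that passed the threshold. From high to low, CDH2 ran from 5637 siCtrl through CAL-29 siCtrl and 5637 siKMT9α to CAL-29 siKMT9α, and no neighbours overlapped.

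CDH3 encodes P-cadherin, the cadherin of basal epithelial cells. It is the upstream neighbour of CDH1 on the same strand (GRCh37 chr16:68670092-68761371), with 9823 bases between the annotated genes. CDH3 measured 445, 435 and 395 CPM in CAL-29 siCtrl libraries and 477, 503 and 493 CPM with siKMT9α. The siKMT9α libraries lay above the controls without overlap, by 0.19 on the log2 scale (SE 0.05, adjusted p = 0.00283), which missed the threshold of 1e-06. Without the library siCtrl 1 the difference was 0.23 and passed it (adjusted p = 9.98e-07). In 5637 cells CDH3 measured 327, 339 and 340 CPM with siCtrl and 372, 369 and 386 CPM with siKMT9α, a log2 difference of 0.16 (SE 0.03, adjusted p = 5.36e-05) that likewise missed the threshold. The responses of CDH3 in the lines differed by -0.05 on the log2 scale (SE 0.06, adjusted p = 0.567). Both CAL-29 groups lay above both 5637 groups. So CDH1 fell in both lines while the gene beside it did not fall in either.

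Set against each other, the classical cadherins changed in their proportions. For this description, CPM values were divided by the length of the canonical transcript of each gene (4.811 kb for CDH1, 4.016 kb for CDH2 and 4.452 kb for CDH3), and each cadherin was expressed as a share of the sum of the 3 cadherins per kb. In CAL-29 siCtrl cells CDH1 made up 78.5% ± 0.231 (SD, n = 3), CDH3 16.3% ± 0.289 and CDH2 5.15% ± 0.0993. With siKMT9α the shares were 70.3% ± 0.417, 27.9% ± 0.449 and 1.76% ± 0.0419. The fall of CDH1 thus went with a larger share of CDH3 and a smaller share of CDH2.

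In 5637 cells CDH1 and CDH3 started close to each other, at 38.6% ± 0.153 and 41.9% ± 0.590 of the cadherin level per kb, and CDH2 held 19.5% ± 0.739. With siKMT9α, CDH3 was the most abundant at 53.3% ± 0.544, ahead of CDH1 at 30.3% ± 0.480 and CDH2 at 16.4% ± 0.0767. The log2 ratio of CDH3 to CDH1 per kb went from -2.27 ± 0.0297 to -1.33 ± 0.0318 in CAL-29 cells and from 0.12 ± 0.0148 to 0.82 ± 0.0375 in 5637 cells. The log2 ratio of CDH2 to CDH1 went from -3.93 ± 0.0264 to -5.32 ± 0.0285 in CAL-29 cells, but from -0.99 ± 0.0609 to -0.88 ± 0.0178 in 5637 cells. Ranges of siCtrl and siKMT9α libraries did not overlap for any of these ratios. The balance of CDH2 to CDH1 therefore moved away from CDH2 in CAL-29 cells and slightly towards it in 5637 cells. The level of these log2 ratios depends on the transcript length taken for each gene, whereas their change does not.

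**Figure D2:**
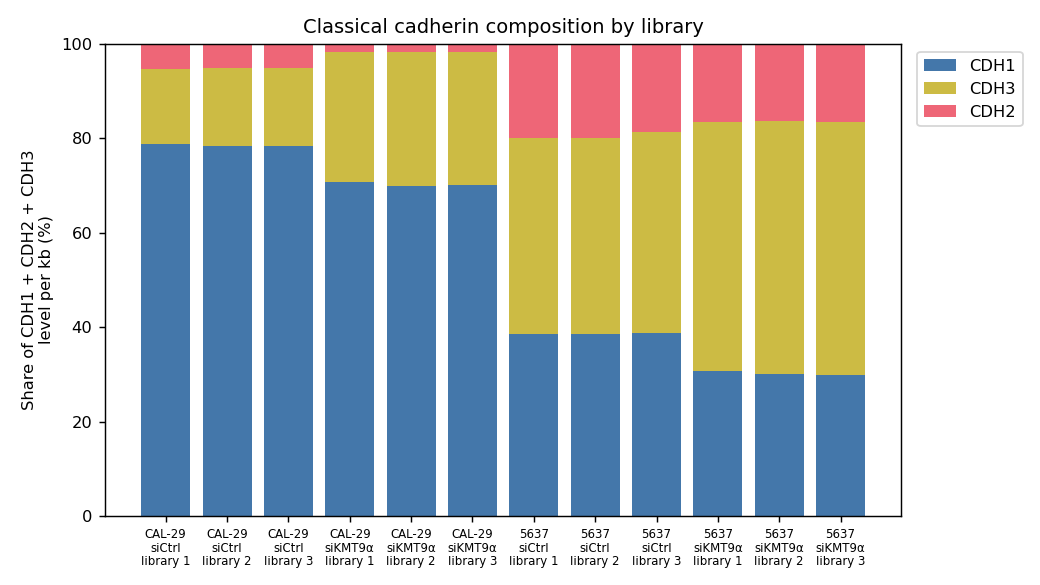
Share of CDH1, CDH3 and CDH2 in the sum of the 3 cadherin levels per kb, in percent, with 1 bar for each of the 12 libraries. In CAL-29 cells the CDH3 share grew from 16.3% to 27.9% on average, and in 5637 cells from 41.9% to 53.3%. The share of CDH2 shrank in both lines, from 5.15% to 1.76% and from 19.5% to 16.4%.

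EPCAM encodes an epithelial cell surface glycoprotein used as a carcinoma marker (GRCh37 chr2:47572297-47614740, plus strand). It measured 235, 224 and 210 CPM in CAL-29 siCtrl libraries and 133, 134 and 131 CPM with siKMT9α. In 5637 cells the values were 284, 278 and 282 CPM against 146, 148 and 148 CPM. Groups did not overlap in either line, and EPCAM fell 1.7-fold in CAL-29 cells (log2 fold change -0.77, SE 0.05, adjusted p = 1.67e-11) and 1.91-fold in 5637 cells (log2 fold change -0.94, SE 0.03, adjusted p = 1.46e-20). The responses differed by -0.19 on the log2 scale (SE 0.06, adjusted p = 0.00832), which did not pass the threshold. From high to low, the order was 5637 siCtrl, CAL-29 siCtrl, 5637 siKMT9α and CAL-29 siKMT9α, with no overlap between neighbours.

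An siRNA can also pair with other transcripts through bases 2 to 8 of its guide strand. The longest annotated 3′ UTR of each of the 10 genes was therefore searched for ACATTCA, the complement of these bases in the guide of siKMT9α#1. It was present in EPCAM and ZEB2, that is in 2 of the 10 genes. Windows of 25 bases that end 1 base after the match, read from the GRCh37 genome in the direction of the transcript, are shown because EPCAM fell in both lines. The first is the target of siKMT9α#1 in the coding sequence of N6AMT1, and capitals mark the match to guide bases 2 to 8.

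N6AMT1: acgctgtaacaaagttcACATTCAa
EPCAM: aaaattatttatgtgtaACATTCAa
ZEB2: cccatgtacatgtaaaaACATTCAa

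The N6AMT1 window lies at chr21:30254500-30254524 on the minus strand, in exon 3 of 8 of its canonical transcript. The EPCAM window lies at chr2:47614001-47614025 on the plus strand in exon 9 of 9, with the match starting at base 266 of a 3′ UTR of 407 bases, and shares 12 of 25 bases with the N6AMT1 window position by position. In ZEB2 the window is chr2:145143120-145143144 on the minus strand in exon 10 of 10, with the match at base 3891 of a 3′ UTR of 5370 bases, and 13 of 25 bases are shared. Both counts of shared bases include the match by which the windows were found. The shortest annotated 3′ UTR of EPCAM and of ZEB2 held no such match. Over the 12462 genes tested in both lines with a 3′ UTR of at least 50 bases, 16.9% held the heptamer. That share was 2.82% of the 956 genes with a 3′ UTR of 300 to 520 bases, the range around EPCAM, and 36.9% of the 1719 genes with one of 4000 to 7000 bases, the range around ZEB2. The match is a description of these letters. Its part in the fall of EPCAM, or in the values of ZEB2 given below, was not tested.

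VIM encodes vimentin, the intermediate filament of mesenchymal cells (GRCh37 chr10:17270240-17279592, plus strand). In CAL-29 cells it measured 25.5, 36.3 and 39.5 CPM with siCtrl and 1.09, 1.08 and 1.33 CPM with siKMT9α. The lowest control library thus stood far above the highest siKMT9α library, and VIM fell 29.5-fold (log2 fold change -4.88, SE 0.17, adjusted p = 8.31e-16). Among the 10 genes this was the largest change in either line. In 5637 cells, which held 360, 369 and 372 CPM with siCtrl, VIM rose to 578, 597 and 578 CPM with siKMT9α. The rise was 1.59-fold (log2 fold change 0.67, SE 0.03, adjusted p = 1.42e-17), and the groups did not overlap. The difference between the responses was 5.54 on the log2 scale (SE 0.17, adjusted p = 6.44e-21). From high to low, the order was 5637 siKMT9α, 5637 siCtrl, CAL-29 siCtrl and CAL-29 siKMT9α, with no overlap between neighbours.

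Strand was not stated for the counting. Of the annotated exon bases of VIM, 24.6% lie opposite an exon of an antisense gene (VIM-AS1 and ENSG00000234961), and reads of the antisense partners cannot be told apart from those of VIM. For the other 9 genes the corresponding share was between 0% and 8.40%, with CDH3 at the upper end through CDH3-AS1. Fibroblast markers were lower with siKMT9α in both lines. The summed level of 8 such markers was 138 to 156 CPM in CAL-29 siCtrl libraries and 60.2 to 67.7 CPM with siKMT9α, and 44.3 to 46.0 CPM against 14.6 to 18.0 CPM in 5637 cells. FAP (121 to 50.9 CPM on average) made up most of the sum in CAL-29 cells and COL1A2 (39.3 to 13.7 CPM) in 5637 cells, whereas the fibroblast proteoglycan gene DCN stayed at or near 0 CPM in all groups. Of the 8 markers, 3 had a mean of at least 1 CPM in both CAL-29 groups, 4 in 5637 siCtrl cells and 1 in 5637 siKMT9α cells, and POSTN was at 0 in all 5637 libraries. The part of these genes in the result for VIM was not tested.

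SNAI2 encodes the zinc finger repressor SLUG, which binds E-boxes of CDH1 (GRCh37 chr8:49830157-49834299, minus strand). In CAL-29 cells it measured 84.0, 90.5 and 96.1 CPM with siCtrl and 53.2, 57.3 and 53.5 CPM with siKMT9α. Without overlap between the groups, SNAI2 fell 1.67-fold (log2 fold change -0.74, SE 0.06, adjusted p = 2.2e-10). In 5637 cells the values were 59.5, 64.7 and 58.2 CPM against 59.1, 63.3 and 66.2 CPM, and these groups overlapped. The log2 fold change there was 0.05 (SE 0.05, adjusted p = 0.368), and its sign turned when libraries were scaled by total counts. The difference between the responses was 0.77 on the log2 scale (SE 0.08, adjusted p = 1.83e-09) and passed the threshold. In CAL-29 cells CDH1 and its repressor SNAI2 thus fell together. The SNAI2 values of CAL-29 siKMT9α cells lay below all values of 5637 cells, and per kb SNAI2 was the most abundant of the 5 transcription factors in each group.

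TWIST1 (GRCh37 chr7:19060614-19157259, minus strand) measured 3.25, 2.51 and 3.76 CPM in CAL-29 siCtrl libraries and 1.92, 2.10 and 1.77 CPM with siKMT9α. The groups did not overlap, but the log2 fold change of -0.73 (SE 0.20, adjusted p = 0.00299) missed the threshold of 1e-06. In 5637 cells the levels were 17.8, 17.5 and 15.3 CPM against 17.3, 18.3 and 15.6 CPM, with overlapping groups and a log2 fold change of 0.02 (SE 0.08, adjusted p = 0.865) whose sign turned under total count scaling. The responses differed by 0.73 on the log2 scale (SE 0.19, adjusted p = 0.0022), which did not pass.

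SNAI1 encodes SNAIL, the paralogue of SLUG (GRCh37 chr20:48599517-48605423, plus strand), and was low. Its level was 1.27, 1.56 and 1.18 CPM in CAL-29 siCtrl libraries and 1.89, 1.05 and 1.14 CPM with siKMT9α. These groups overlapped, and the log2 fold change was 0.01 (SE 0.28, adjusted p = 0.972). In 5637 cells SNAI1 measured 0.596, 0.752 and 0.572 CPM with siCtrl and 1.03, 1.09 and 1.21 CPM with siKMT9α, from 62 and 92 counts in all. The latter groups did not overlap, with a log2 fold change of 0.80 (SE 0.27, adjusted p = 0.0107) that missed the threshold of 1e-06. The difference between the responses was 0.77 (SE 0.39, adjusted p = 0.105).

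The ZEB genes encode zinc finger homeobox repressors of CDH1 and were low. ZEB1 (GRCh37 chr10:31607424-31818742, plus strand) had 15 counts over the CAL-29 siCtrl libraries and 26 with siKMT9α, at most 0.356 CPM in any of these libraries, and was removed by the filter on low counts in CAL-29 cells. In 5637 cells it measured 0.157, 0 and 0.0572 CPM with siCtrl and 0.574, 0.377 and 0.604 CPM with siKMT9α, from 7 and 43.5 counts. It passed the filter only through the siKMT9α libraries, and its log2 fold change of 2.79 (SE 0.59, adjusted p = 0.000136) missed the threshold of 1e-06. An edgeR likelihood ratio test put it past the threshold (adjusted p = 4.24e-08). ZEB1 alone among the 10 genes held CACATTC, the corresponding heptamer of siKMT9α#2, in its longest 3′ UTR, as did 14.9% of the 12462 genes.

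ZEB2 (GRCh37 chr2:145121931-145278624, minus strand) had 16 and 30 counts in CAL-29 cells, at most 0.706 CPM, and was not tested there. In 5637 cells it measured 5.21, 6.15 and 5.60 CPM with siCtrl and 4.82, 4.97 and 5.50 CPM with siKMT9α. The groups overlapped, and the log2 fold change was -0.15 (SE 0.12, adjusted p = 0.267). Both ZEB genes are listed as several transcripts, 6 for ZEB1 and 3 for ZEB2, of which the one with the most counts was kept. A ZEB2 transcript that was not kept had far fewer counts in 5637 cells, 12.5, 16.5 and 17.5 with siCtrl and 22, 25 and 23 with siKMT9α, without library scaling, and was higher with siKMT9α where the kept one was not. A sense gene, AC009951.1, overlaps 11.3% of the exon bases of ZEB2 and its reads could not be separated. The interaction terms of ZEB1 (2.21, adjusted p = 0.046) and ZEB2 (-0.85, adjusted p = 0.207) did not pass the threshold.

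**Figure D3:**
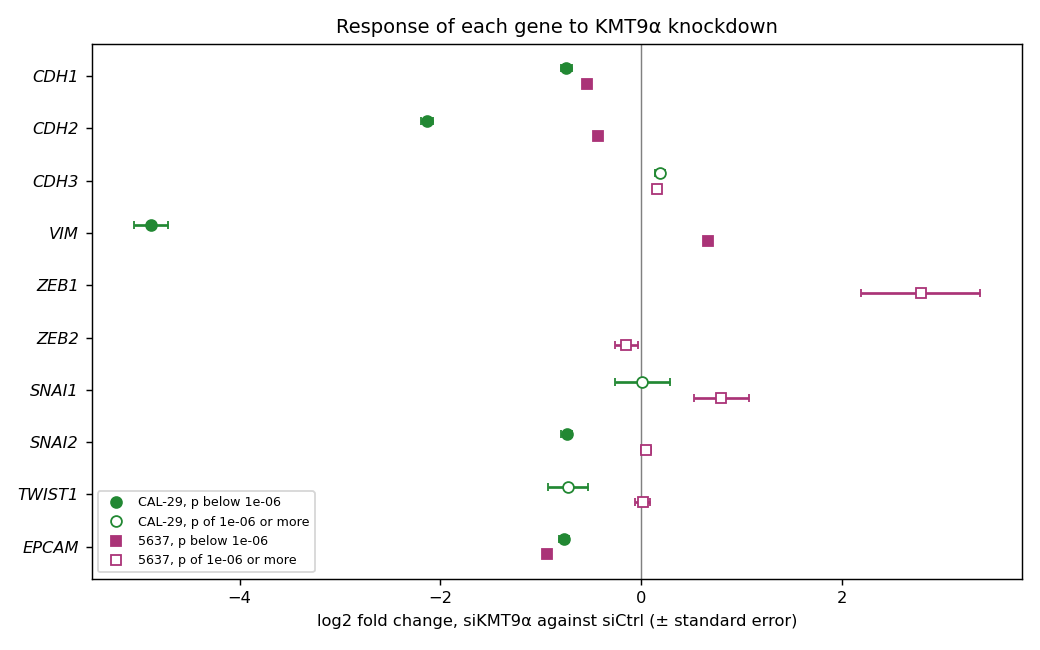
Log2 fold change of siKMT9α against siCtrl (x axis) with its standard error, for each of the 10 genes (y axis), with circles for CAL-29 and squares for 5637 cells. Filled symbols passed p below 1e-06. VIM lies at -4.88 in CAL-29 and 0.67 in 5637 cells, CDH1, CDH2 and EPCAM lie left of 0 in both lines, and ZEB1 and ZEB2 have no symbol for CAL-29 cells, where they were not tested.

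In sum over the genes tested, 5 of 8 fell (CDH1, CDH2, VIM, SNAI2 and EPCAM) and 0 rose in CAL-29 cells, beside 15% of all 14673 genes tested that fell and 15% that rose. In 5637 cells 3 of 10 fell (CDH1, CDH2 and EPCAM) and 1 rose (VIM), beside 17.6% and 18% of 14335 genes. At an adjusted p below 0.05 in place of 1e-06, 6 were lower and 1 was higher in CAL-29 cells, where 35.2% and 34.3% of all genes were. In 5637 cells 3 were lower and 4 were higher at that threshold, where 35.6% and 35.1% of all genes were. ZEB1, among these 4, passed the filter on low counts only through the siKMT9α libraries, so its place in the count is a description. The response differed between the lines for 3 of the 10 (CDH2, VIM and SNAI2), beside 15.7% of the 15395 genes in the joint model. Without the library CAL-29 siCtrl 1, the called CAL-29 log2 fold changes were -0.69 for CDH1, -2.07 for CDH2, -5.04 for VIM, -0.78 for SNAI2 and -0.72 for EPCAM, and 6 genes instead of 5 were called, with CDH3 added. The difference between the lines without it was 1.63 for CDH2, 5.70 for VIM and 0.82 for SNAI2.

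Promoter windows of RefSeq (GRCh38.p14, 250 bases before to 50 after a start site) were at hand for 4 of the 10 genes, VIM, CDH2, ZEB1 and ZEB2. CACCTG or its reverse complement CAGGTG, the E-box that SNAI and ZEB factors bind, was not found in the windows of VIM, CDH2 and ZEB2. It occurred in 2 of the 7 ZEB1 windows, 1 and 3 times, where 20.6% of all 35116 windows held it.

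Among partners of the cadherins at adherens junctions, more were called lower than higher. Of 15 tested partners, 7 fell and 1 rose in CAL-29 cells (median log2 fold change -0.28, against -0.016 over all genes) and 6 fell and 2 rose in 5637 cells (median -0.11, against -0.0055). Over all genes, 15% fell and 15% rose in CAL-29 cells, and 17.6% fell and 18% rose in 5637 cells, which holds for the lists that follow too. CTNND1, the p120 catenin that keeps cadherins at the membrane, fell from 641 ± 13 to 377 ± 8.79 CPM (mean ± SD over the 3 libraries of a group, as below) in CAL-29 cells (log2 fold change -0.78, SE 0.05, adjusted p = 4.69e-12). In 5637 cells it fell from 407 ± 4.61 to 274 ± 8.60 CPM (log2 fold change -0.57, SE 0.03, adjusted p = 1.47e-15). VCL, the actin linker vinculin, fell by 1.21 and 0.52 on the log2 scale, from 902 ± 58.4 to 396 ± 3.93 CPM and from 285 ± 1.65 to 200 ± 5.72 CPM. NECTIN2, an immunoglobulin-like adhesion molecule, fell by 0.56 and 0.46. Its relative NECTIN1 went the other way, from 219 ± 7.19 to 356 ± 16.6 CPM in CAL-29 cells (log2 fold change 0.68, adjusted p = 9.84e-11) and from 155 ± 2.65 to 374 ± 14.3 CPM in 5637 cells (1.27, adjusted p = 4.58e-23).

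The regulators of the epithelial state were divided. In CAL-29 cells 5 of 17 rose and 5 fell, and in 5637 cells 6 rose and 4 fell, with medians of 0.22 and -0.08. EHF, an ETS factor of epithelia, rose from 49.8 ± 2.13 to 147 ± 3.66 CPM in CAL-29 cells (log2 fold change 1.54, SE 0.05, adjusted p = 2.63e-16) and from 293 ± 12.1 to 476 ± 8.60 CPM in 5637 cells (0.70, SE 0.03, adjusted p = 3.21e-17). KLF5, a zinc finger factor of proliferating epithelia, rose by 1.09 and 0.93, and ESRP2, a splicing factor of the epithelial programme, by 0.53 and 0.52. The ETS factor ELF3 split the lines, rising in CAL-29 cells (1.18, SE 0.05) and falling in 5637 cells (-0.38, SE 0.04), with a difference of -1.58 (adjusted p = 1.39e-18). Not all genes of the list called in both lines rose, and SPINT1 fell in both (log2 fold changes -0.58 and -0.38). Thus EHF, KLF5 and ESRP2 rose in both lines, while SPINT1 of the same list and the epithelial adhesion genes CDH1 and EPCAM fell.

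Other EMT transcription factors and their cofactors showed no common direction. Of 18 tested in CAL-29 5 rose and 4 fell (median -0.35), and of 14 tested in 5637 cells 5 rose and 3 fell (median 0.10). PRRX1, 1 of the 5 rises in CAL-29 cells, had a mean of 0.128 CPM with siCtrl and 2.43 CPM with siKMT9α. It passed the filter on low counts only through the siKMT9α libraries, so its call is a description. ID3, an inhibitor of basic helix-loop-helix factors, fell in both lines, from 135 ± 11.1 to 49.9 ± 2.49 CPM and from 95.5 ± 2.47 to 35.6 ± 3.18 CPM (log2 fold changes -1.46 and -1.43, SE 0.06 and 0.05). The partner factor TCF3, which encodes the E proteins E12 and E47, rose by 0.38 and 0.48, and FBXL14, a ubiquitin ligase subunit that marks SNAI and TWIST proteins for degradation, by 1.15 and 0.66. For ID3 and TCF3 the responses of the lines differed by 0.01 (SE 0.08) and 0.08 (SE 0.05) and did not pass the threshold.

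Of 18 other cadherins, CAL-29 cells had 5 and 5637 cells had 7 with enough counts for a test. In CAL-29 cells 1 rose and 0 fell, and in 5637 cells 1 rose and 2 fell (medians -0.31 and -0.30). CDH5, the cadherin of endothelial cells, rose in CAL-29 cells from 0.871, 0.533 and 0.589 CPM to 3.45, 3.79 and 4.04 CPM (log2 fold change 2.48, SE 0.24, adjusted p = 9.1e-09). In 5637 cells it went from 1.07, 1.11 and 1.43 CPM to 0, 0 and 0.101 CPM. There it passed the filter on low counts only through the siCtrl libraries, so its call, 1 of the 2 falls counted, is a description. The summed level of 7 endothelial markers, CDH5 included, went from 11.1 to 13.5 CPM down to 5.24 to 6.95 CPM in CAL-29 cells and from 2.88 to 3.39 CPM down to 0.904 to 1.38 CPM in 5637 cells. The lower sum in CAL-29 cells was mostly KDR, a VEGF receptor gene, at 10.5 CPM on average with siCtrl and 1.68 CPM with siKMT9α. Of the 7, 1 and 2 had a mean of at least 1 CPM in the CAL-29 siCtrl and siKMT9α groups and 2 and 0 in those of 5637 cells, and PECAM1 stayed near 0 throughout. The part of this list in the result for CDH5 was not tested.

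Of the other mesenchymal markers, more were called lower than higher. Of 17 tested in CAL-29 cells 9 fell and 0 rose (median -1.09), and of 18 tested in 5637 cells 8 fell and 3 rose (median -0.52). The shares over all genes were 15% in each direction in CAL-29 cells, and 17.6% lower and 18% higher in 5637 cells. NES, another intermediate filament gene, fell with VIM in CAL-29 cells, from 73.2 ± 0.907 to 4.78 ± 0.349 CPM (log2 fold change -3.95, SE 0.07, adjusted p = 9.06e-20), and fell in 5637 cells from 4.47 ± 0.0784 to 1.06 ± 0.235 CPM (-2.07, SE 0.18, adjusted p = 2.19e-11) where VIM rose. AXL, a receptor tyrosine kinase of mesenchymal carcinoma cells, fell from 70.4 ± 3.14 to 32.0 ± 0.870 CPM and from 707 ± 18.1 to 345 ± 22.1 CPM (log2 fold changes -1.16 and -1.03). The matrix protease gene MMP2 fell by 1.84 and 0.76, and LGALS1, a galectin, by 0.68 and 1.18.

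TNC and ITGA5 shared the pattern of VIM across the lines. TNC, which encodes the matrix protein tenascin C, fell from 1229 ± 35.0 to 128 ± 10.8 CPM in CAL-29 cells (log2 fold change -3.28, SE 0.06, adjusted p = 1.03e-19). In 5637 cells it rose from 470 ± 7.74 to 633 ± 17.4 CPM (0.43, SE 0.03, adjusted p = 4.45e-13). ITGA5, the fibronectin receptor subunit, fell from 136 ± 14.6 to 64.7 ± 3.63 CPM in CAL-29 cells and rose from 58.0 ± 2.35 to 75.8 ± 3.02 CPM in 5637 cells (log2 fold changes -1.09 and 0.38). The interaction terms were 3.70 (SE 0.07, adjusted p = 1.93e-25) for TNC and 1.45 (SE 0.08, adjusted p = 1.34e-14) for ITGA5. Thus in 5637 cells VIM, TNC and ITGA5 rose while CDH2, NES, AXL, MMP2 and LGALS1 fell, and in CAL-29 cells all 8 fell. The lists were written with earlier results of these data known, and their counts are a description.

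**Figure D4:**
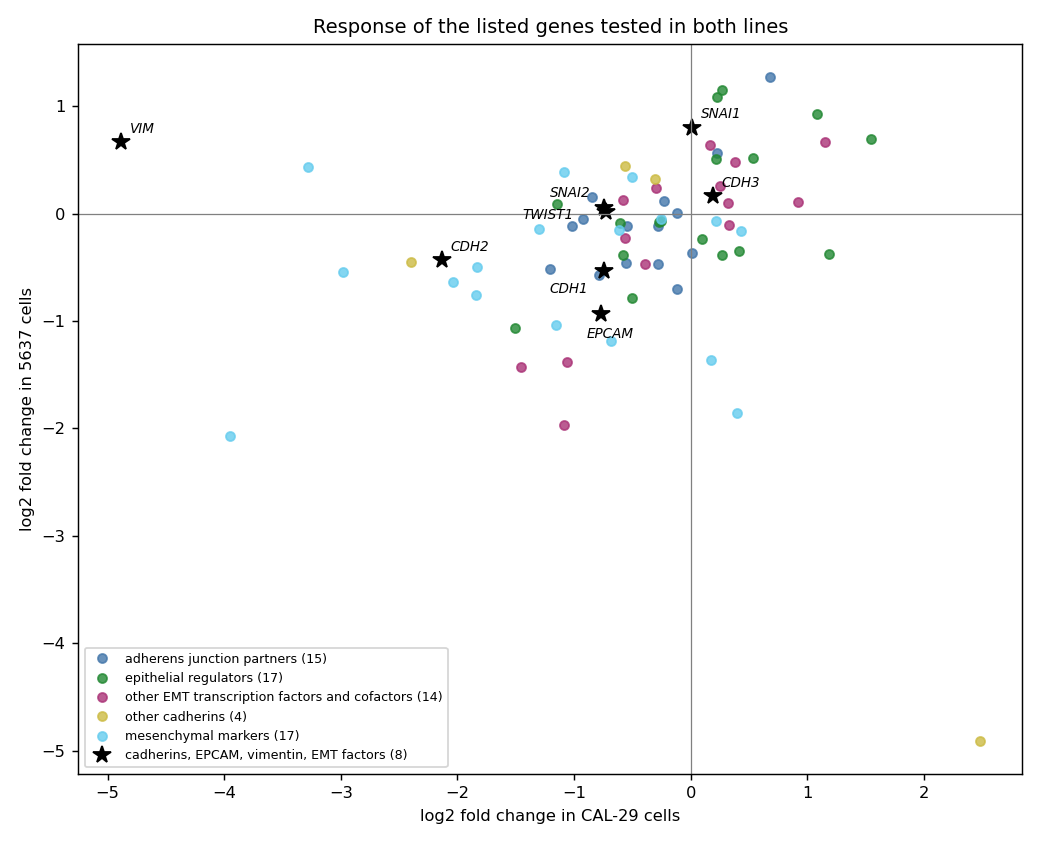
Log2 fold change of siKMT9α against siCtrl in CAL-29 cells (x axis) and in 5637 cells (y axis) for the listed genes tested in both lines, coloured by list with the number of genes in brackets, and for the 8 of the 10 genes tested in both lines (black stars). VIM lies at the upper left, at -4.88 and 0.67, apart from CDH2, CDH1 and EPCAM, which lie below 0 on both axes.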

How the data were processed

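RNA was extracted from CAL-29 and 5637 cells at day 3 of siRNA treatment. STAR was used by the authors for alignment to hg19, Homer for counting and edgeR for testing. The deposited tables hold the authors' estimated counts, not normalized, in steps of 0.5, for 37400 RefSeq transcripts of 23064 symbols per line. The deposited tables also hold the p-value, raw and adjusted, and the log2 fold change that the authors obtained with edgeR for control against knockdown, and these columns were not used. The strand setting is not given in the sources used here. Each symbol was represented by its transcript of highest count, rounded to whole numbers. In edgeR 4.0.16 (R 4.3.3), libraries were scaled with TMM, filterByExpr removed low genes, and the quasi-likelihood F test was applied within each line, with Benjamini-Hochberg adjustment over all genes. Differences between lines came from 1 model of all 12 libraries. The standard error is the log2 fold change divided by the square root of F. The smallest exact permutation p for 3 libraries against 3 is 0.1. Gene positions, 3′ UTRs and transcript lengths came from the GENCODE annotation of GRCh37, the assembly hg19 denotes. Besides the 10 genes, N6AMT1, PRRX1 and SPINT1, genes were named from each list by a rule. It took up to 4 called in both lines in the same direction and up to 2 in opposite directions. Those with the largest smaller change of the lines were taken. Of the genes under this rule, 1 is not reported here. The members and lists were chosen with earlier results of these data known. The script was tested on simulated data. Replicate numbers of the titles were used, and the descriptions number some libraries differently. Alternatives were other filters, scalings and tests, DESeq2 1.42.0, another transcript, a replicate block and each library left out.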

Additional observations from a re-analysis of the deposited data

Results flagged for a closer look

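In 3 of the 10 genes the response to siKMT9α differed between CAL-29 and 5637 cells by the interaction term of the joint model at p below 1e-06. Over all 15395 genes in that model, 15.7% passed the same test. The response in 5637 minus that in CAL-29 cells was 5.54 on the log2 scale for VIM (adjusted p = 6.44e-21), with all siKMT9α libraries below the controls in CAL-29 cells and all above them in 5637 cells. For CDH2 it was 1.69 (adjusted p = 2.94e-17), with lower values in all siKMT9α libraries of both lines. For SNAI2 it was 0.77 (adjusted p = 1.83e-09), with lower values in all siKMT9α libraries of CAL-29 cells and overlapping groups in 5637 cells. Line, reagent, dose and medium cannot be told apart in these differences.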

How the results depend on the processing

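The number of genes called over the 5 lists ranged from 31 to 48 in CAL-29 cells, where it was 37 as reported and 31 to 44 with 1 library left out, and from 36 to 43 in 5637 cells, where it was 40. As reported, 72 genes of the lists were tested in CAL-29 and 71 in 5637 cells. Over all genes, 15% fell and 15% rose in CAL-29 cells, and 17.6% fell and 18% rose in 5637 cells. The number of the 10 genes called was 5 or 6 in CAL-29 cells, 4 or 5 in 5637 cells, 3 for the difference between the lines, and 6 to 8 between the control libraries, and the log2 fold change of N6AMT1 ranged from -2.09 to -1.85 in CAL-29 and from -2.47 to -2.08 in 5637 cells. CDH3 passed the threshold in 5637 cells without a filter (adjusted p = 8.77e-07) and in DESeq2 (adjusted p = 9.58e-07), and the baseline difference of CDH2 without a filter (adjusted p = 1.19e-06). Directions turned only for values that were not called. The log2 fold change of SNAI1 in CAL-29 cells ranged from -0.3048 to 0.1834 with each library left out and was -0.018 with a replicate block. Under total count scaling it was -0.0048 for SNAI2 and -0.0386 for TWIST1 in 5637 cells, and for TWIST1 it ranged from -0.0525 to 0.0821 with each library left out. The interaction of CDH3 ranged from -0.0825 to 0.0015 with each library left out.

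No pairing of the libraries by the replicate numbers of the titles was seen. The descriptions number some libraries differently, so a pairing under other numbers could not show. Correlations of same-numbered libraries' deviations ranged from -0.017 to 0.072 over 6 pairs of libraries, and 2 of 6 correlated best with their own number. With the replicate block, 5 of the 10 genes were called in CAL-29 and 4 in 5637 cells, and calls over all genes went from 4402 to 6327 and from 5104 to 5378. The plan to keep the longest transcript of each symbol was not run, since the tables give no lengths, and the first listed transcript, chosen after seeing the data, took its place. Depth limits ZEB1, ZEB2 and SNAI1, whose groups hold between 7 and 550 counts.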
